A study of Saccharomyces cerevisiae with 10 samples.

Results

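The 33 genes described here encode the machinery with which budding yeast moves secretory proteins into the endoplasmic reticulum (ER), folds them there and sends the misfolded ones to destruction. They were taken by name and comprise 8 genes of the translocon, 15 of folding and redox chemistry, 8 of ER-associated degradation, and the stress sensor gene IRE1 with the gene of its transcription factor, HAC1. All 33 of 33 were measured, each by 1 probe set, among 5449 genes in all. Each of 5 strains with a temperature-sensitive allele of an SCF ubiquitin ligase gene was profiled on 1 array from room temperature culture (25 °C) and on 1 array following 1 h of heat inactivation at 35 °C, a design meant to give a signature for each gene product. The strains carried cdc53-1 (strain py175, the cullin scaffold), cdc34-3 (py24, the ubiquitin-conjugating enzyme), cdc4-3 (py187, an F-box protein), skp1-11 (W303) and skp1-25 (py1374, like skp1-11 an allele of the adaptor gene). The medium was YPDA, which is rich and glucose-based, and since each strain carries an SCF mutation, warming and loss of the SCF cannot be told apart.

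As background, most secretory proteins enter the ER through the Sec61 channel, and the Hsp70 chaperone Kar2 pulls them in and holds them while they fold. Disulfide bonds are made by Pdi1 and its relatives, which Ero1 re-oxidises. Proteins that fail to fold are drawn back out, ubiquitinated by the Hrd1 ligase complex and degraded by the proteasome. When unfolded proteins build up, the membrane sensor Ire1 splices HAC1 mRNA, and the Hac1 protein then switches on many chaperone and degradation genes. Several of the same chaperone genes, KAR2 among them, also answer to heat through the heat shock factor Hsf1.

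Levels are log2 probe set values, and a change is the level at 35 °C minus that at room temperature in the same strain. Values in every strain are listed in the order cdc53-1, cdc34-3, cdc4-3, skp1-11 and skp1-25, and an error given as ± is the SD over these 5 strains. Genes were tested with limma, with strain as a block and p-values adjusted (Benjamini-Hochberg) over all 5449 genes. The arrays show RNA pooled over a culture, so a change in the share of cells that express a gene and a change per cell cannot be told apart. The labels mention no repeat cultures, and each p-value therefore weighs a change against strain-to-strain spread, which may in part be technical. The strains differed in background. The a-specific genes STE2, STE6, MFA1 and MFA2 mark haploid cells of mating type a. They lay between 6.36 and 8.47 on the cdc53-1 arrays and between 11.09 and 13.26 on the other 8. The a-specific protease gene BAR1 lay between 11.65 and 12.11 in cdc34-3 and skp1-11, and between 7.26 and 7.91 in cdc53-1, cdc4-3 and skp1-25. The alpha-specific list of 4 genes ran from 3.92 to 10.55 on all 10 arrays.

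At 35 °C, 8 of the 33 ER genes rose and 0 fell. Over all genes, 13% rose and 4.61% fell (706 and 251 genes). That split was 539 and 477 genes with each array centred on its median, and 500 and 534 after quantile normalization. The 8 comprised the folding factors SIL1, ERO1, JEM1 and SCJ1 and the degradation factors DER1, CUE1, HRD3 and YOS9. The changes of these 8 genes ran from 0.25 to 0.64 on the log2 scale, or 1.19-fold to 1.56-fold. Whether the groups of ER genes differed from each other was not tested. limma gave an unadjusted p under 0.05 for 15 of the 33, against 34.2% of all genes. In all, 13 of the 33 were higher in 5 of 5 strains, as were 21.7% of all genes. The median change was 0.16 over the 33 genes and 0.05 over all genes. It was 0.28 for folding and redox genes, 0.26 for degradation genes and 0.00 for the translocon. With each array centred on its median these medians were 0.09 for the 33 genes, -0.02 for all genes, 0.21 for folding and redox, 0.19 for degradation and -0.07 for the translocon. After quantile normalization they were 0.09, -0.03, 0.22, 0.18 and -0.08 in the same order. On 3 genes, ERO1, YOS9 and CUE1, all 5 arrays at 35 °C lay above all 5 at room temperature, which held for 6.35% of all genes.

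**Figure D1:**
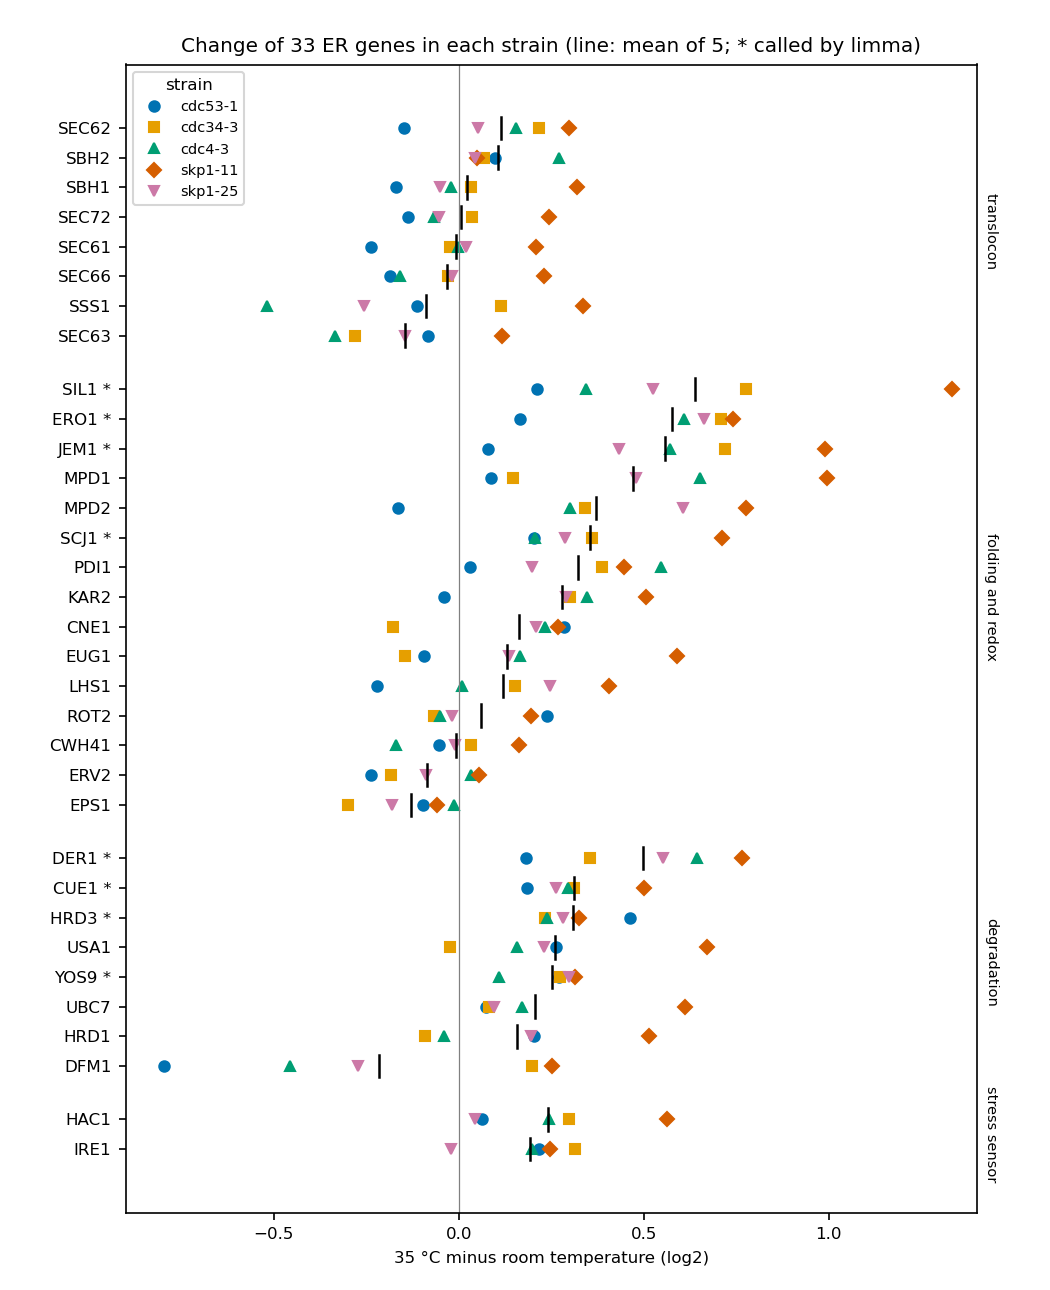
Change at 35 °C (log2, x axis) of each of the 33 ER genes in each of 5 strains (symbols), with the mean of the 5 as a black line and an asterisk for the 8 genes called by limma. The 8 translocon genes scatter around 0, whereas SIL1, ERO1, JEM1 and DER1 lie above 0 in all 5 strains, and the skp1-11 symbol is the farthest to the right for 26 of the 33 genes.

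Most of these calls were lost in 4 of the 5 fits that each left out 1 strain, the exception being the fit without cdc53-1. ERO1 was called in 4 of the 5, with the highest adjusted p at 0.0534 without cdc4-3. DER1 was called in 2 of these fits, SIL1, JEM1, HRD3 and CUE1 in 1 each, and SCJ1 and YOS9 in 0, with adjusted p up to 0.102. The number of ER genes called higher was 8 without cdc53-1, 3 without cdc34-3, 0 without cdc4-3, 1 without skp1-11 and 1 without skp1-25. The mean changes of the 8 genes that rose could not fall below 0 in these fits, since each gene was higher in 5 of 5 strains. The 8 called without cdc53-1 were SIL1, JEM1, ERO1, DER1 and CUE1 with KAR2, PDI1 and MPD2, while SCJ1, HRD3 and YOS9 were lost. With each array centred on its median the number was 4, after quantile normalization 5, and without the strain block 2.

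Averaged over the strains, the translocon was the group with its median change nearest 0. The strains differed, with translocon medians of -0.14, 0.03, -0.04, 0.24 and -0.03. The genes higher at 35 °C numbered 1, 5, 2, 8 and 3 of 8 in the same order. None of the 8 passed the test (limma, with 0 of 8 at an unadjusted p under 0.05), and their mean changes ran from -0.15 for SEC63 to 0.11 for SEC62. SEC61, which encodes the pore-forming subunit, stood at 12.79, 12.88, 12.66, 12.79 and 12.84 at room temperature and at 12.55, 12.85, 12.66, 13.00 and 12.86 at 35 °C. The temperatures overlapped, and the 95% interval of the SEC61 change ran from -0.19 to 0.18, so a change as large as that of ERO1 lies outside it. SSS1, the small stabilising subunit of the channel, varied more, with changes of -0.11, 0.12, -0.52, 0.34 and -0.26. SBH1, the beta subunit of the Sec61 channel, had changes of -0.17, 0.03, -0.02, 0.32 and -0.05. Its paralog SBH2, whose product sits in the related Ssh1 channel, had changes of 0.10, 0.07, 0.27, 0.05 and 0.04. SBH2 was thus the 1 translocon gene above 0 in all 5 strains (adjusted p = 0.273).

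The other 4 translocon genes serve the route by which finished proteins enter after translation. SEC62 had changes of -0.15, 0.22, 0.15, 0.30 and 0.05. SEC63, whose J domain brings Kar2 to the pore, stood at 12.26, 12.31, 12.11, 12.38 and 12.20 at room temperature and at 12.18, 12.03, 11.78, 12.50 and 12.06 at 35 °C. It was lower at 35 °C in 4 strains and higher in skp1-11, with a mean of -0.15 ± 0.18 (adjusted p = 0.254). SEC66 and SEC72, which complete the Sec63 complex, had mean changes of -0.03 ± 0.17 and 0.00 ± 0.15.

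Among the folding genes, 3 of the 4 co-chaperones of Kar2 placed in this group rose. That count leaves out partners of Kar2 in other lists, such as SEC63 in the translocon, with a mean change of -0.15. KAR2 itself stood at 13.74, 13.82, 13.41, 13.74 and 13.65 at room temperature and at 13.70, 14.12, 13.76, 14.24 and 13.94 at 35 °C. It was higher at 35 °C in 4 strains, by 0.29 to 0.51, and at -0.04 in cdc53-1, so that the mean of 0.28 ± 0.20 did not pass (adjusted p = 0.0704). Of the 5 fits that each left out 1 strain, KAR2 passed in 1, without cdc53-1, the strain with its lowest change (mean 0.36, adjusted p = 0.0359). In the other fits its adjusted p reached 0.185.

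SIL1, which encodes a nucleotide exchange factor that resets Kar2, stood at 11.35, 11.28, 10.68, 11.33 and 10.55 at room temperature and at 11.57, 12.06, 11.02, 12.66 and 11.08 at 35 °C. It was higher in 5 of 5 strains, most in skp1-11, although the temperatures overlapped, with cdc4-3 and skp1-25 the lowest arrays at each. SIL1 rose by 0.64 ± 0.44, or 1.56-fold (adjusted p = 0.0422), the largest mean change of the 33 genes. LHS1, a second exchange factor for Kar2, had changes of -0.22, 0.15, 0.01, 0.41 and 0.25 and did not pass (adjusted p = 0.434).

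JEM1 and SCJ1 encode J-domain proteins that stimulate the Kar2 ATPase. JEM1 stood at 10.84, 10.51, 10.21, 10.83 and 10.32 at room temperature and at 10.92, 11.23, 10.78, 11.82 and 10.75 at 35 °C. SCJ1 stood at 12.04, 12.17, 11.79, 12.18 and 12.02 at room temperature and at 12.24, 12.54, 12.00, 12.89 and 12.31 at 35 °C. Both were higher in 5 of 5 strains, with skp1-11 the highest array at 35 °C, and for both the temperatures overlapped. JEM1 rose by 0.56 ± 0.34 (1.47-fold, adjusted p = 0.0312) and SCJ1 by 0.35 ± 0.21 (1.28-fold, adjusted p = 0.0421).

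The redox genes were led by ERO1, the thiol oxidase that recharges Pdi1. ERO1 stood at 13.03, 12.90, 12.61, 12.74 and 12.47 at room temperature and at 13.19, 13.61, 13.22, 13.48 and 13.14 at 35 °C. The arrays did not overlap, and 4 strains gained between 0.61 and 0.74 while cdc53-1, the highest at room temperature, gained 0.17. ERO1 rose by 0.58 ± 0.24, or 1.49-fold (adjusted p = 0.0124). ERV2, which encodes the other ER thiol oxidase, had a mean change of -0.08 ± 0.13 (adjusted p = 0.428).

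PDI1 encodes the main disulfide isomerase. It stood at 13.58, 13.62, 13.21, 13.46 and 13.44 at room temperature and at 13.61, 14.01, 13.76, 13.91 and 13.63 at 35 °C. It was higher in 5 of 5 strains, by only 0.03 in cdc53-1, and its mean of 0.32 ± 0.21 missed the threshold (adjusted p = 0.0529). Of the 5 fits that each left out 1 strain, PDI1 passed in 1, without cdc53-1, the strain with its lowest change (adjusted p = 0.0390). In the other fits its adjusted p reached 0.151. Its relatives were spread widely. MPD1, an isomerase relative, stood at 11.58, 11.86, 10.89, 11.37 and 10.96 at room temperature and at 11.67, 12.00, 11.55, 12.37 and 11.44 at 35 °C. All 5 strains were higher at 35 °C, with a mean of 0.47 ± 0.37 (adjusted p = 0.0634). MPD2 had a mean change of 0.37 ± 0.36 (adjusted p = 0.107) and was lower only in cdc53-1, by 0.16. EPS1, a membrane-bound member of the family, was the 1 ER gene lower in all 5 strains, with changes from -0.30 to -0.01 and a mean of -0.13 ± 0.11 (adjusted p = 0.214), and 11% of all genes were lower in 5 of 5.

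EUG1 is a further PDI1 relative. It stood at 11.49, 11.58, 10.85, 11.75 and 11.29 at room temperature and at 11.39, 11.43, 11.02, 12.34 and 11.43 at 35 °C. Its level was highest in skp1-11 at both temperatures, and its mean change of 0.13 ± 0.29 did not pass (adjusted p = 0.459). The 3 genes that act on N-glycans did not pass either. CNE1, the calnexin gene, had a mean change of 0.16 ± 0.19. CWH41 and ROT2, which encode glucosidase I and the catalytic subunit of glucosidase II, had mean changes of -0.01 ± 0.12 and 0.06 ± 0.15.

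**Figure D2:**
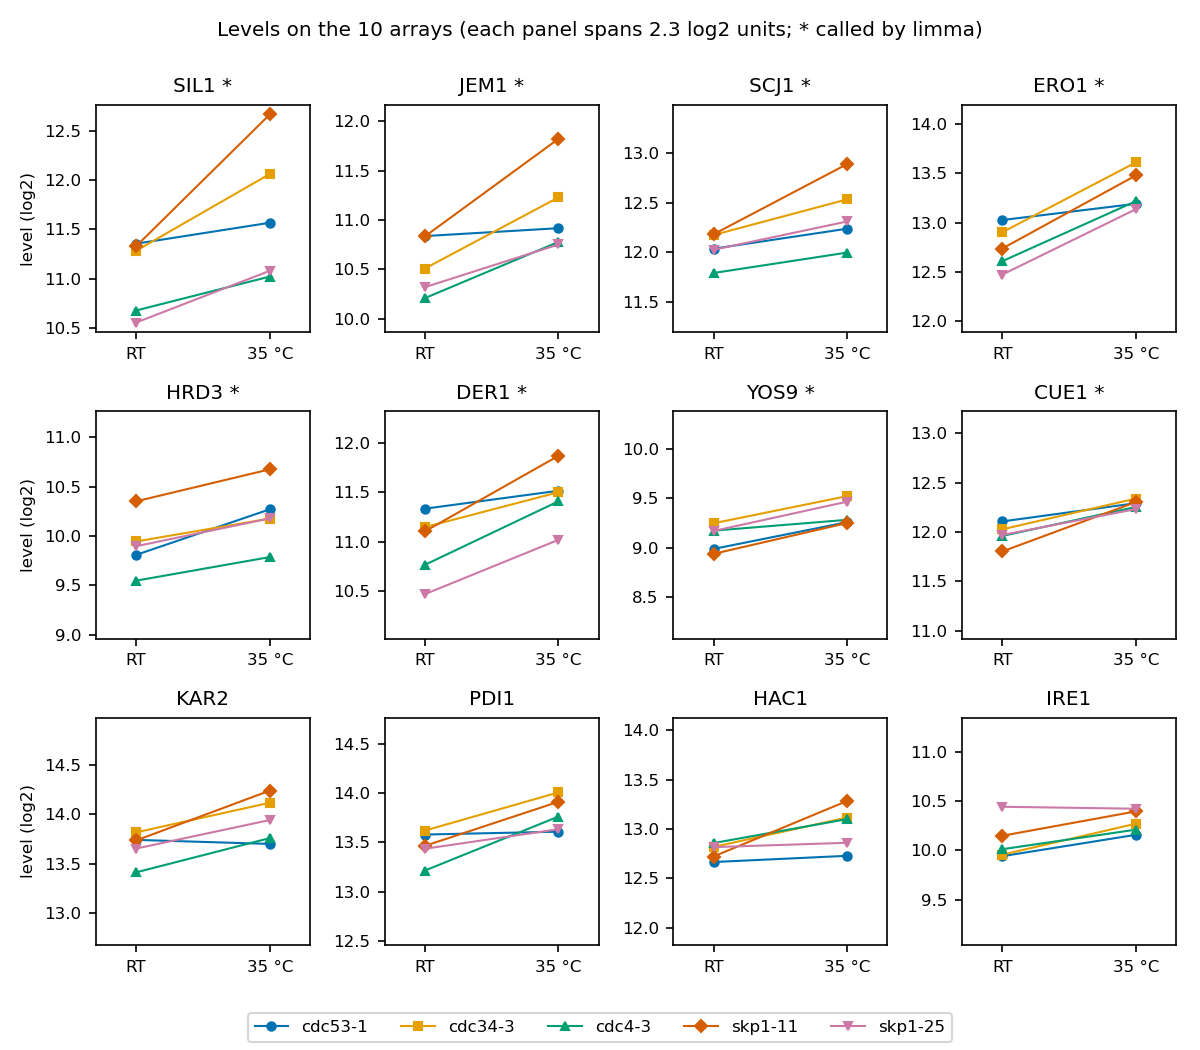
Level (log2, y axis, equal span in every panel) on each of the 10 arrays for the 8 ER genes called by limma (asterisk) and for KAR2, PDI1, HAC1 and IRE1, with a line joining room temperature (RT) and 35 °C in each of 5 strains. All lines of the 8 called genes slope upward, and the lines of SIL1 and DER1 start far apart, from 10.55 to 11.35 and from 10.47 to 11.33.

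Of the degradation genes, 4 of 8 rose. DER1, whose product helps to draw misfolded proteins from the ER lumen, stood at 11.33, 11.15, 10.77, 11.10 and 10.47 at room temperature and at 11.52, 11.50, 11.41, 11.87 and 11.02 at 35 °C. It was higher in 5 of 5 strains and rose by 0.50 ± 0.23, or 1.41-fold (adjusted p = 0.0193), while the overlap between temperatures came from skp1-25, which was lowest at each. DFM1, the DER1 paralog, stood at 11.16, 11.01, 11.11, 11.28 and 11.07 at room temperature and at 10.36, 11.20, 10.66, 11.53 and 10.80 at 35 °C. The strains split, with cdc53-1, cdc4-3 and skp1-25 lower at 35 °C and cdc34-3 and skp1-11 higher, and DFM1 had the lowest mean change of the 33 genes, at -0.22 ± 0.44 (adjusted p = 0.392).

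HRD1 encodes the membrane ubiquitin ligase at the centre of the complex. It stood at 11.07, 11.13, 10.99, 11.20 and 11.04 at room temperature and at 11.28, 11.04, 10.95, 11.72 and 11.23 at 35 °C. It was higher at 35 °C in 3 of 5 strains, and the mean of 0.16 ± 0.24 did not pass (adjusted p = 0.307). HRD3, its partner that recognises substrates in the lumen, stood at 9.81, 9.95, 9.55, 10.35 and 9.90 at room temperature and at 10.27, 10.18, 9.79, 10.68 and 10.18 at 35 °C. The gain was similar in all 5 strains, between 0.23 and 0.46, although skp1-11 stood above the other strains at each temperature. HRD3 rose by 0.31 ± 0.09 (adjusted p = 0.0216).

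YOS9, the lectin that reads trimmed glycans for Hrd3, stood at 8.99, 9.25, 9.17, 8.94 and 9.17 at room temperature and at 9.26, 9.52, 9.28, 9.25 and 9.47 at 35 °C. The highest array at room temperature (9.248) lay just below the lowest at 35 °C (9.251), and YOS9 rose by 0.25 ± 0.08 (adjusted p = 0.0341). USA1, the scaffold that joins Hrd1 and Der1, had changes of 0.26, -0.02, 0.16, 0.67 and 0.23 and did not pass (adjusted p = 0.132).

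CUE1 and UBC7 act as a pair, since Cue1 anchors and activates the ubiquitin-conjugating enzyme Ubc7 at the membrane. CUE1 stood at 12.11, 12.03, 11.96, 11.80 and 11.97 at room temperature and at 12.29, 12.34, 12.26, 12.30 and 12.23 at 35 °C. The arrays did not overlap, the strains at 35 °C lay within an SD of 0.04, and CUE1 rose by 0.31 ± 0.12 (adjusted p = 0.0256). UBC7 was higher at 35 °C by 0.61 in skp1-11 and by 0.07 to 0.17 in the other 4 strains, and did not pass (adjusted p = 0.182).

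Neither gene of the sensing branch passed the test. IRE1 stood at 9.94, 9.96, 10.01, 10.15 and 10.44 at room temperature and at 10.16, 10.27, 10.21, 10.39 and 10.42 at 35 °C. HAC1 stood at 12.66, 12.82, 12.86, 12.72 and 12.81 at room temperature and at 12.73, 13.12, 13.10, 13.28 and 12.86 at 35 °C. IRE1 was higher in 4 of 5 strains, all but skp1-25, and HAC1 in 5 of 5, by 0.04 in skp1-25 and 0.56 in skp1-11. Mean changes were 0.19 ± 0.13 for IRE1 (adjusted p = 0.103) and 0.24 ± 0.21 for HAC1 (adjusted p = 0.113). The array reads HAC1 RNA with 1 probe set, and which part of the RNA it matches was not examined. Splicing, the step by which Ire1 acts on this RNA, was not measured.

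Strains also differed before the shift. At room temperature cdc4-3 was the lowest of the 5 arrays for 19 of the 33 ER genes, against 18.7% of all genes, and cdc34-3 was the highest for 16, against 23.1%. EUG1 in cdc4-3 stood at 10.85, where the other strains ran from 11.29 to 11.75, and KAR2 at 13.41, where they ran from 13.65 to 13.82. PDI1 in cdc4-3 stood at 13.21, against 13.44 to 13.62. With their sign, changes were most often lowest in cdc53-1, for 19 of the 33 genes, against 29.9% of all genes. A lowest change can be a large fall, such as DFM1 at -0.80 in cdc53-1. The median change there was 0.06 over the ER genes and 0.00 over all genes. Strain background, including the low a-specific genes of cdc53-1 and the high BAR1 of cdc34-3 and skp1-11, moves with the allele here, and its part was not tested.

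For most of the 33 genes the largest change was in skp1-11. There 32 of the 33 genes were higher at 35 °C, EPS1 being the exception at -0.06, and 63.7% of all genes were higher. In the other strains the number was 18 in cdc53-1, 23 in cdc34-3, 22 in cdc4-3 and 22 in skp1-25, where the shares over all genes were 49.7%, 58.1%, 63.6% and 52.6%. The change in skp1-11 was the highest of the 5 strains for 26 of the 33 genes, 7 of 8 in the translocon, 11 of 15 in folding and redox, 7 of 8 in degradation and HAC1, and it was so for 25.7% of all genes. The median ER change was 0.34 in skp1-11, 0.15 in cdc34-3, 0.17 in cdc4-3 and 0.14 in skp1-25. After median centring, 24 of the 33 genes had their highest change in skp1-11 (21% of all genes), and after quantile normalization 23 (18%). The genes higher at 35 °C in skp1-11 numbered 30 after centring (49.2% of all genes) and 29 after quantile normalization (45.3%).

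Tested gene by gene, the difference of skp1-11 from the mean of the other 4 strains did not pass for any of the 33 genes. limma called 0 of 5449 genes in this contrast (smallest adjusted p = 0.542), and an unadjusted p under 0.05 was reached by 5 of the 33, SIL1, SCJ1, EUG1, USA1 and UBC7, against 3.98% of all genes. skp1-11 has 1 pair of arrays, whose change is assumed to vary like the other 4. The intervals are wide, and a gene that missed the threshold is not shown to change alike in skp1-11 and the rest. SIL1 changed by 1.33 in skp1-11 and by 0.21 to 0.78 in the others, a difference of 0.87 (95% interval 0.25 to 1.49, adjusted p = 0.997). MPD1 changed by 1.00, against 0.09 to 0.65, a difference of 0.65 (interval -0.01 to 1.32, adjusted p = 0.997). DFM1 changed by 0.25, against -0.80 to 0.20, a difference of 0.58 (interval -0.36 to 1.52, adjusted p = 0.997). In all, 32 of the 33 differences were above 0, with a median of 0.33, against 61.2% of all genes and a median of 0.06, and SBH2 was the exception at -0.07.

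**Figure D3:**
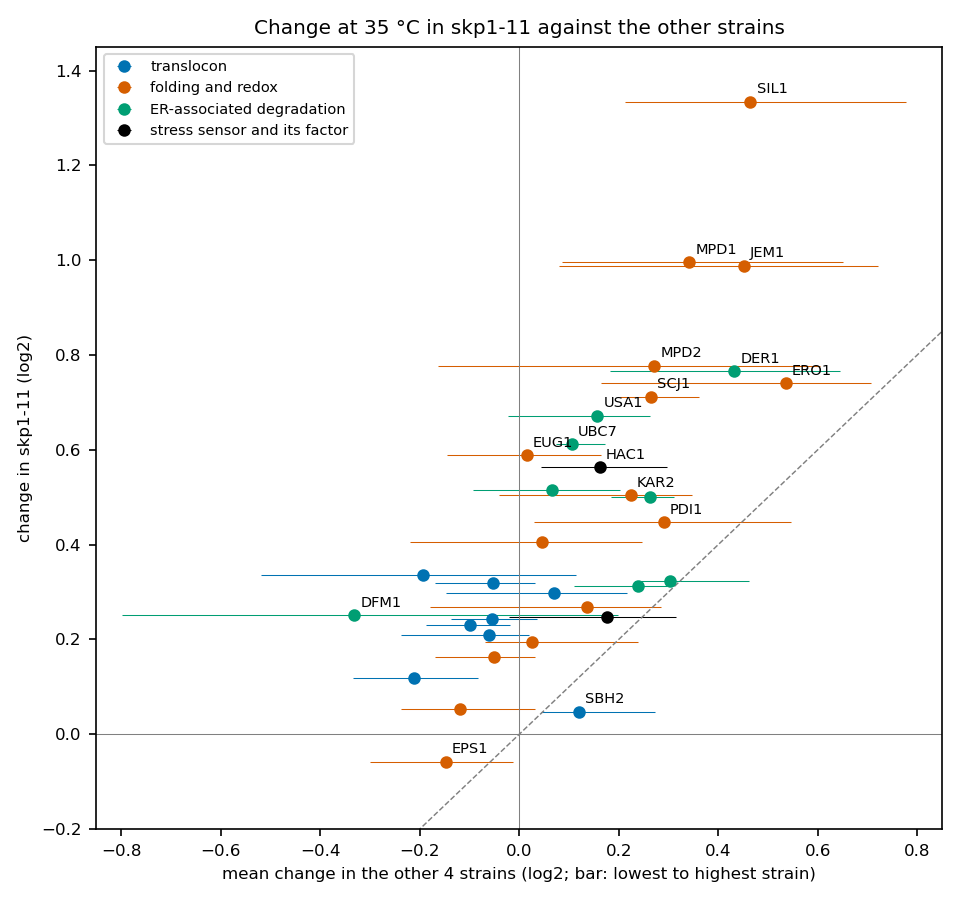
Change at 35 °C in skp1-11 (log2, y axis) against the mean change in the other 4 strains (log2, x axis, with a bar from the lowest to the highest of them) for the 33 ER genes, coloured by role, with a dashed line where both are equal. All points but SBH2 lie above the dashed line, and SIL1 stands highest, at 1.33 in skp1-11.

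The genes kept much of their order between skp1-11 and the rest. Across the 33 genes the change in skp1-11 and the mean change in the other 4 strains had a Pearson r of 0.74, as a description, since the genes share 10 arrays and are not replicates. Over all 5449 genes r was 0.69. Between single strains r over the 33 genes ran from 0.23, for cdc53-1 with cdc34-3, to 0.83, for cdc4-3 with skp1-25. Over all genes r between single strains ran from 0.41, for cdc53-1 with cdc34-3, to 0.59, for cdc4-3 with skp1-11. The other adaptor allele, skp1-25, had an r of 0.78 with skp1-11 over the 33 genes and 0.50 over all genes. It had the highest change of the 5 strains for 0 of the 33 genes, against 12.3% of all genes.

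Most genes stood further above the other strains in skp1-11 at 35 °C than at room temperature. At room temperature the level in skp1-11 minus the mean of the other 4 strains had a median of 0.01 over the 33 genes, and at 35 °C a median of 0.33. The skp1-11 array was the highest of 5 for 7 of the 33 genes at room temperature, against 17.9% of all genes, and for 23 at 35 °C, against 21.8%. SEC61, PDI1, ERO1 and MPD1 in skp1-11 lay within 0.05 of the mean of the other strains at room temperature and above it by 0.27, 0.16, 0.19 and 0.70 at 35 °C. Other genes stood above that mean already before the shift. HRD3 did so by 0.55 before it and by 0.57 after it. EUG1, JEM1, SIL1 and LHS1 were above it by 0.44, 0.37, 0.36 and 0.31 at room temperature and by 1.02, 0.90, 1.23 and 0.67 at 35 °C. The skp1-11 array was the lowest of 5 at room temperature for 5 of the 33 genes, against 1409 of all 5449. For these, SSS1, ROT2, YOS9, UBC7 and CUE1, the difference was -0.20, -0.26, -0.21, -0.11 and -0.21 at room temperature. At 35 °C it was 0.33, -0.09, -0.13, 0.40 and 0.02.

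Averaged over both temperatures, 28 of the 33 genes stood higher in skp1-11 than the mean of the other strains, against 50.9% of all genes, and 0 passed the test. limma called 6 genes higher (0.11% of all) and 14 lower (0.257%), none of them among the 33. An unadjusted p under 0.05 was reached by 5 of the 33, JEM1, EUG1, HRD1, HRD3 and DFM1, against 6.17% of all genes. SIL1 averaged 12.00 in skp1-11 and 10.82 to 11.67 in the others, a difference of 0.80 (95% interval -0.18 to 1.77, adjusted p = 0.915). EUG1 averaged 12.04, against 10.93 to 11.51, a difference of 0.73 (interval 0.10 to 1.36, adjusted p = 0.733). JEM1 averaged 11.33, against 10.49 to 10.88, a difference of 0.63 (interval 0.10 to 1.17, adjusted p = 0.733).

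**Figure D4:**
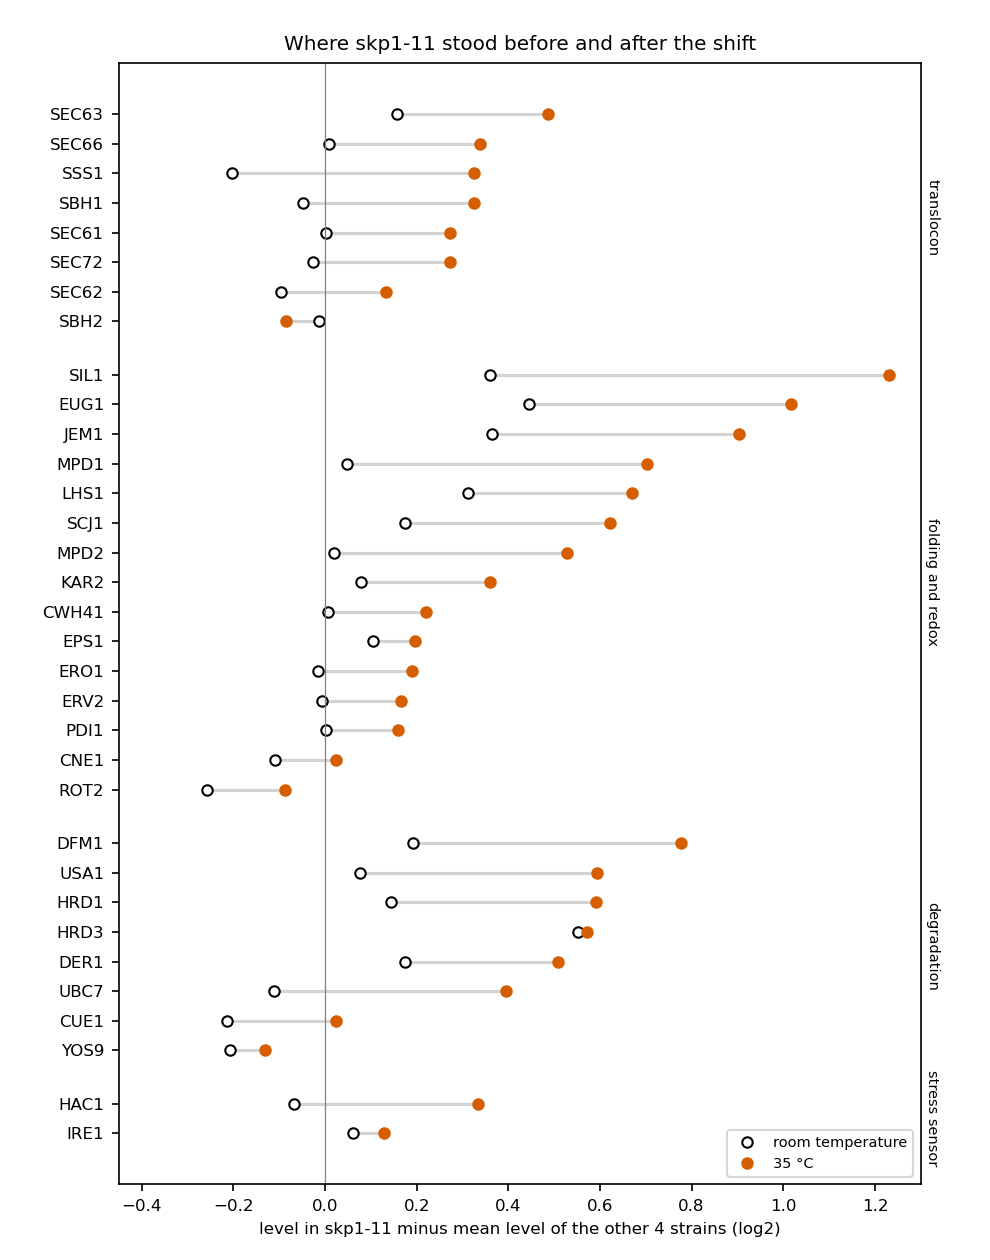
Level in skp1-11 minus the mean level of the other 4 strains (log2, x axis) for each of the 33 ER genes at room temperature (open) and at 35 °C (filled). Open symbols scatter around 0 with a median of 0.01, filled symbols lie mostly to their right with a median of 0.33, and SBH2 is the exception that moves to the left.

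Other genes of the secretory route were counted in 9 lists. Genes of the signal recognition particle and its receptor, which bring ribosomes to the channel, fell in 2 of 8: SRP68 by 0.32 ± 0.08 (adjusted p = 0.0176) and SRP72 by 0.29 ± 0.11 (adjusted p = 0.0273). Further ER folding factors rose in 2 of 8: ROT1, an essential ER chaperone, by 0.25 ± 0.11 (adjusted p = 0.0437) and KRE5, needed for wall glucan synthesis, by 0.31 ± 0.19 (adjusted p = 0.0473). In this list CPR5, an ER prolyl isomerase gene, had a mean change of 0.21 ± 0.10 (adjusted p = 0.0599). In the other 7 lists 0 genes passed by limma: 0 of 4 for signal peptidase, 0 of 9 for oligosaccharyltransferase, 0 of 6 for tail-anchor insertion, 0 of 6 for O-mannosyltransferases, 0 of 9 for the COPII coat, 0 of 10 for the Doa10 branch with Cdc48, and 0 of 3 for HAC1 splicing. At an unadjusted p under 0.05 these had 0, 3, 3, 0, 2, 1 and 0 genes. SSM4, which encodes the Doa10 ligase, had a mean change of -0.34 ± 0.22 (adjusted p = 0.0510).

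The high position of skp1-11 was shared by genes outside the 33. It had the highest change of the 5 strains for 25.7% of all genes. The count was 9 of 9 for oligosaccharyltransferase, 7 of 9 for COPII, 5 of 6 for tail-anchor insertion and 5 of 6 for O-mannosyltransferases. It was 3 of 4 for signal peptidase, 7 of 10 for the Doa10 branch with Cdc48, 4 of 8 for the signal recognition particle and its receptor, 4 of 8 for further folding factors and 0 of 3 for HAC1 splicing. Cytosolic heat shock genes, of which 6 of 12 rose, had their highest change in skp1-11 for 11 of 12. Their median change was 0.21, 0.05, 0.53, 0.87 and 0.46. In cdc34-3 that median was the lowest of the 5, whereas the median of the folding genes there was 0.15 and lowest in cdc53-1, at 0.03. Single heat shock genes in cdc34-3 ran from -1.34 for BTN2 to 2.93 for HSP26, and 7 of the 12 were higher at 35 °C. The part of the heat response in the ER changes was not tested.

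**Figure D5:**
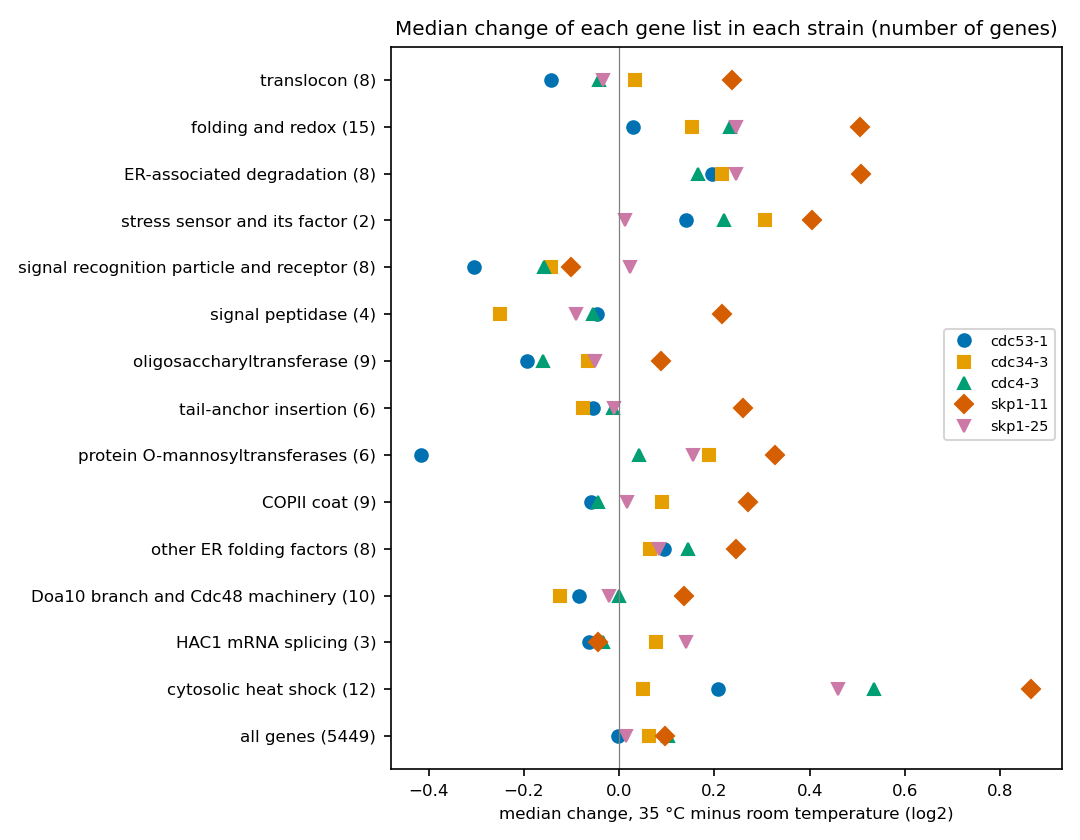
Median change at 35 °C (log2, x axis) of each gene list in each of 5 strains (symbols), with the number of genes in brackets, for the 4 ER groups, the related lists, cytosolic heat shock genes and all genes. In skp1-11 the folding and the degradation medians both stand at 0.51, beside 0.24 for the translocon and 0.10 for all genes.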

How the data were processed

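Expression was measured on Affymetrix arrays from biotin-labelled cRNA, per the labels' protocols. The authors deposited log2 values. The base was inferred from their range (0 to 14.665), since no label names it. For probe summary, background correction, normalization and filters, the method is not given in the sources used here. Array medians ran from 10.96 to 11.13. Signal over background was not used here. The number of arrays limits the precision.

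Of 5716 probe sets, 5498 had 1 gene symbol in the platform annotation, 0 several and 218 none. Symbols were updated by gene identifier through RefSeq's gene table for R64 (12 changed). For 47 genes with several probe sets the brightest was kept, which left 5449 genes, with no filter on low values. No sequence was used here.

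All tests used limma 3.58.1 under R 4.3.3 (lmFit, eBayes, two-sided, adjusted p threshold 0.05). The temperature fit had strain as a block, since both arrays of a strain carry the same allele and strain name. Deviations from the temperature means correlated across genes within a strain with r from 0.43 to 0.77, and at most 0.12 between strains. The contrasts of skp1-11 were fitted on the 5 changes and on the 5 strain means. The fits were tested on simulated data, where both skp1-11 contrasts recovered fewer of the changed genes than the temperature fit at each size of change. Intervals are at 95%.

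The 33 genes and all other lists were chosen with earlier results of these data known. Values in every strain are given for genes past the threshold of the temperature fit, for the 3 with the largest difference in each skp1-11 contrast, and for KAR2, PDI1, ERO1, SEC61, DER1, HRD1, HAC1 and IRE1. From related lists up to 3 genes with the largest statistic were eligible. Other values named per strain were chosen after they were seen.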

Additional observations from a re-analysis of the deposited data

Results flagged for a closer look

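Dixon's test over the 5 strains was applied to the level at each temperature and to the change of each of the 33 genes (99 sets of 5). It set 1 strain apart in 5 sets, all of them changes. The 5 flags thus fell among the 33 changes. Chance alone gives about 1 in 20 for independent sets. These sets are not independent, since each change is made from the levels, so the number of flags was not weighed against chance. UBC7 changed by 0.61 in skp1-11 and by 0.07 to 0.17 elsewhere. ERO1 changed by 0.17 in cdc53-1 and by 0.61 to 0.74 elsewhere. CNE1 changed by -0.18 in cdc34-3 and by 0.21 to 0.28 elsewhere. SBH2 changed by 0.27 in cdc4-3 and by 0.04 to 0.10 elsewhere, and YOS9 by 0.11 in cdc4-3 and by 0.27 to 0.31 elsewhere.

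In the values as deposited, SEC63 and SEC66 went opposite ways in skp1-11 and in every other strain. The median change of all genes in skp1-11 was 0.10, and whether the signs hold under other scalings was not examined. SEC63 changed by 0.12 in skp1-11 and by -0.34 to -0.08 in the others, and SEC66 by 0.23 against -0.19 to -0.02. limma's test of these differences passed for neither (adjusted p = 0.997 each).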

How the results depend on the processing

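With each array centred on its median, 4 ER genes were called higher (2 folding and 2 degradation genes), and after quantile normalization 5, of which 2 were folding genes. Both fits lost SIL1, SCJ1 and YOS9, and centring also lost HRD3 (adjusted p from 0.0509 to 0.189). With no replicate block for strain, 2 were called (1 folding, 1 degradation). Without the dimmest 25% of genes, which drops HRD3 and YOS9, 8 were called (6 folding, 2 degradation). With a variance trend in eBayes, 10 were called (7 folding, 3 degradation). Leaving out 1 strain gave 0 to 8 ER genes called higher, with 0 to 6 folding and 0 to 2 degradation genes, from fewer arrays. No ER gene was called lower, and no called change reversed, under these alternatives. Leaving out 1 strain could not reverse a called change, since each called gene was higher in every strain. The group medians moved by less than the spread of the strain medians, although centring took the median of the 33 genes from 0.16 to 0.09 and that of the translocon from 0.00 to -0.07. Counts of genes with their highest change in skp1-11 were recomputed under scalings chosen after seeing the data.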
